A study of Mus musculus with 10 samples.

Results

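The nuclear genes that encode the subunits of respiratory complexes II, III, IV and V were followed in alveolar type II (AT2) cells of wild type mice and of mice labelled HOIL-1L knockout. Members were taken by symbol, namely Sdha, Sdhb, Sdhc, Sdhd and Cyc1 and every symbol that begins with Uqcr, Cox4 to Cox8 or Atp5, and genes of the mitochondrial chromosome (symbols that begin with mt-) were left out. The rule used no measured value and found 45 of the 16154 gene IDs in the table, 4 of complex II, 9 of complex III, 15 of complex IV and 17 of complex V. All 45 reached at least 1 normalized count per M (M for mega) in at least 5 libraries and were tested. The symbols also bring in isoform genes known from other tissues, Cox7a2l, whose product takes part in building respiratory supercomplexes, and Atp5s, named for an ATP synthase coupling factor.

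Complex II oxidises succinate of the citric acid cycle and passes the electrons to ubiquinone, complex III carries them from there to cytochrome c, and complex IV hands them to oxygen. Complexes III and IV pump protons across the inner mitochondrial membrane, and complex V, the ATP synthase, lets them flow back to make ATP. Every subunit of complex II is a nuclear gene product, whereas complexes III, IV and V are built from nuclear and mitochondrially encoded subunits together. AT2 cells make and secrete lung surfactant, and the nuclear respiratory genes are known as common targets of the transcription factors NRF1 and GABPA (also called NRF2 in this setting).

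PolyA RNA was sequenced from AT2 cells sorted from lungs of C57BL/6 mice that were 8 to 10 weeks old, 5 wild type mice (replicates 2 to 6) and 5 labelled HOIL-1L knockout (replicates 1 to 5). HOIL-1L, encoded by Rbck1, belongs to the ligase that joins linear ubiquitin chains. The genotype label reads HOIL-1L -/-, while the design text describes floxed HOIL-1L with a Cre driven by the SPC promoter, which is active in AT2 cells, so the sources leave the kind of deletion unsettled. No other allele or agent is named, the N in each title is not explained, and each title has its own mouse number. The numbers form an earlier run (wild type 2 and 3, knockout 1, 2 and 3) and a later run (wild type 4, 5 and 6, knockout 4 and 5), which the labels do not call batches. Column totals were 6.94 to 7.43 M, and the lowest values put the depth at roughly 7.69 to 13.2 M reads per library. AT2 markers, led by surfactant protein genes, summed to 213942 to 255804 per M in wild type and 212567 to 247847 in knockout libraries.

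In each group 1 library went against its label at the targeted gene. Rbck1 stood at 29.7, 56.7, 57.8, 56.1 and 56.6 per M in the libraries labelled wild type 2 to 6, and at 59.3, 29.8, 36.4, 38.0 and 38.8 per M in those labelled knockout 1 to 5. The library labelled wild type 2 thus had the lowest value of all and the library labelled knockout 1 the highest. The counts and medians of members, the sums per complex, the listed pathways and the members with the smallest p are therefore also given for the 8 libraries that remain without these. The gene-level value counts every exon, deleted or not. Xist and Y-linked genes were read for sex, which was female in knockout 2, knockout 3 and the library labelled wild type 2, and male in the rest. Among the 8 libraries only knockout 2 and knockout 3 are thus female and every wild type library is male. Sex is therefore partly confounded with genotype there.

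Promoter windows were looked up first, because the members are a set with known shared regulators. RefSeq promoters of build GRCm38.p6, which run from 250 bases before to 50 bases after the start site, were found for 34 of the 45 members. Searched on both strands, the NRF1 letters GCGCANGCGC occurred in 9 of these 34 windows (26.5%) and in 4.603% of all 32851 promoters. The GABPA letters CTTCCGG occurred in 11 of 34 (32.4%) against 8.86%, and the YY1 letters AAGATGGC in 2 of 34 (5.88%) against 2.75%. At least 1 of the 3 was present in 18 of 34 windows (52.9%) against 14.7% of all promoters, NRF1 and GABPA letters together in 4, and in no window did matches of different motifs share a base. Members also held more CpG dinucleotides, with a median of 19 per window against 7, and the NRF1 and GABPA letters themselves contain CpG. Each member gave 1 window, the nearest to the 5′ end of its gene. The comparison set was every promoter, with more than 1 for some genes and whether or not the gene was tested here. It was not matched for CpG, so the shares are no test of enrichment. A match is a run of letters and no evidence of binding. The 5 windows below are those of genes to which the results return, written 5′ to 3′ on the strand of the gene, with motif matches in capitals. Uqcrc1 and Atp5g3 carry NRF1 matches, Cox6a1 carries NRF1 matches and a GABPA match, and the isoform pair Cox7a1 and Cox7a2 carries none of the 3 motifs, with 7 and 20 CpG.
Uqcrc1 (chr9:108936398-108936697, plus strand): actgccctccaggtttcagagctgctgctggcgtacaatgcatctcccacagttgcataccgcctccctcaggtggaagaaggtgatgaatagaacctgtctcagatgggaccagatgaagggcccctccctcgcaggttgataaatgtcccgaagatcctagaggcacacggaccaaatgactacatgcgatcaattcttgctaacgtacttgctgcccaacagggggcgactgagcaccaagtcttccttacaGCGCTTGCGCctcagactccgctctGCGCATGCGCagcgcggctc
Atp5g3 (chr2:73911277-73911576, minus strand): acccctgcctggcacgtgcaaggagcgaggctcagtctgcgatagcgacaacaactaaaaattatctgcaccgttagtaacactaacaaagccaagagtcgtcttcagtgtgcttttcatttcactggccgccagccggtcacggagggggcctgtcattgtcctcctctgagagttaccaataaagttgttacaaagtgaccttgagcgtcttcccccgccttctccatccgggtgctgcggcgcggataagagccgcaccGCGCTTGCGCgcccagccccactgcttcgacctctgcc
Cox6a1 (chr5:115348909-115349208, minus strand): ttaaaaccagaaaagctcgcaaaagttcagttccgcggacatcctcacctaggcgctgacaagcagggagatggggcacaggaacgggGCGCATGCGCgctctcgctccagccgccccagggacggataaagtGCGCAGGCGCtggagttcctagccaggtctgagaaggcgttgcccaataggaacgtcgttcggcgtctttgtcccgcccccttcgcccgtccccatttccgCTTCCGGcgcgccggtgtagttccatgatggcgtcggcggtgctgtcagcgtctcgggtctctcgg
Cox7a2 (chr9:79759804-79760103, minus strand): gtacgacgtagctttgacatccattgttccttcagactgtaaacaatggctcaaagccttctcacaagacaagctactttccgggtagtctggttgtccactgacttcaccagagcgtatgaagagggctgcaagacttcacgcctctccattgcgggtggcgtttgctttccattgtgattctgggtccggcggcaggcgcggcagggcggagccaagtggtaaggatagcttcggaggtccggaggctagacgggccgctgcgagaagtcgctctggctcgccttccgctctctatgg
Cox7a1 (chr7:30183921-30184220, plus strand): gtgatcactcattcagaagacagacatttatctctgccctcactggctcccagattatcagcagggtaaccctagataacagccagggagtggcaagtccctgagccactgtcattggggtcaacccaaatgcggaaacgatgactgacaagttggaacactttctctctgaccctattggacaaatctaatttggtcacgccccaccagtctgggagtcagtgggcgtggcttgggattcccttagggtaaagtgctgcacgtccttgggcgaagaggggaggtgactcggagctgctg

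Nearly all members had lower mean levels in the knockout libraries, by small amounts, and no member passed the test. With limma, 0 of 45 members passed an adjusted p of 0.05, as did 0% of the 12946 genes tested, and the adjusted p of members ran from 0.363 (Uqcrc1) to 0.996 (Atp5s). The log2 fold change, knockout minus wild type, was below 0 for 44 of 45 members, against 48.7% of all genes, and its median was -0.14, or about -9.19%, against 0.01 over all genes. The exception, Atp5s, stood at 0.00. At an unadjusted p under 0.05 there were 11 members on the lower side (3.28% of all genes) and 0 on the higher side (803 of the 12946 genes). The 11 were Sdhc, Uqcrc1, Uqcr10, Cyc1, Uqcrq, Cox6a2, Cox7a2, Cox7c, Cox5a, Atp5g3 and Atp5o. For 42 of 45 members the 95% interval lay within a 1.5-fold change either way, and the exceptions were Cox4i2, Cox6a2 and Cox7a1. Every knockout library lay below every wild type library for 2 members, Uqcrc1 and Cox6a2 (0.633% of all genes). In these bulk samples, fewer cells of a type and less RNA per cell cannot be told apart.

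**Figure D1:**
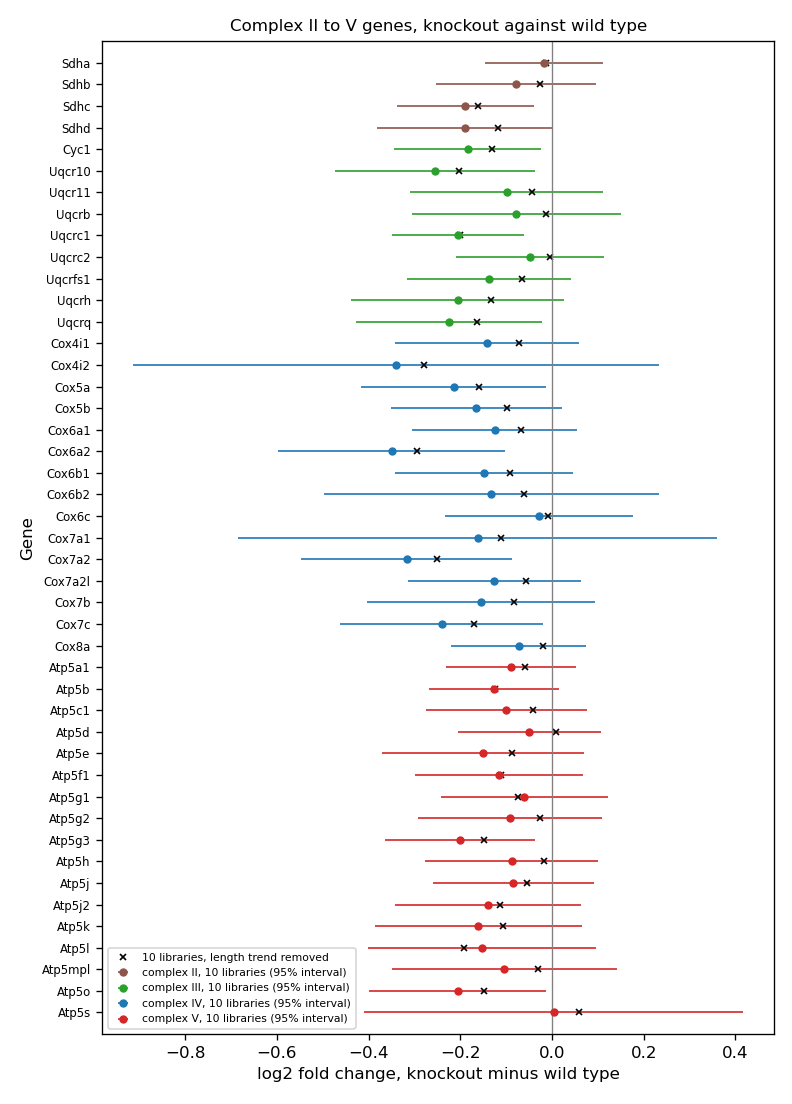
Log2 fold change (knockout minus wild type, horizontal axis) of each of the 45 genes with its 95% limma interval over 10 libraries, coloured by complex, and as a cross the value after each library's trend on exon length was removed. All points but Atp5s lie left of 0, most intervals cross 0, and the crosses mostly lie closer to 0.

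In the 8 libraries, all 45 members were below 0 (49.9% of all genes) and the median was -0.16, with -0.13, -0.15, -0.20 and -0.14 for complexes II, III, IV and V. Again 0 members passed with limma, where 52 of all genes (0.402%) did, and the smallest adjusted p was 0.213 for Uqcr10. At an unadjusted p under 0.05 there were 9 members on the lower side (5.25% of all genes), and Uqcrc1 and Cox6a2 were again the 2 members whose groups did not overlap (2.87% of all genes). Within the earlier run 43 members were below 0 (49.7% of all genes) and within the later run 42 (48.2%), each with a median of -0.16, and 0 members passed in either run with limma, as did 0% and 0.317% of all genes. The exceptions were Sdha and Atp5s in the earlier run and Uqcrc2, Cox4i2 and Cox6c in the later run. The 10-library median became -0.09 without the library labelled wild type 4, and the count below 0 became 42. Of the 22 members given by library further on, leaving out 1 library moved the log2 fold change of 14 by over 1.5 times, with Sdha alone turning its sign. It did so for 10 members without wild type 4, 9 without knockout 5, 6 without wild type 6 and 2 to 4 without each of the others. The 8 that moved less were Sdhc, Sdhd, Uqcrc1, Uqcr10, Cox6a2, Cox7a2, Atp5g3 and Atp5o.

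The members varied together from library to library, also within the groups. In the libraries labelled wild type 3 and 4, 43 of 45 members stood above their own mean over all libraries, and in wild type 2 it was 40. In wild type 5 the number was 20 and in wild type 6 only 4. Among the knockout libraries it was 35 in the library labelled knockout 1, 10 in knockout 2, 8 in knockout 3, 7 in knockout 4 and 3 in knockout 5. Wild type 4 was the highest library for 29 members, while wild type 6 was the lowest for 14 and knockout 5 the lowest for 16. Together the members made up 0.431% (knockout 5) to 0.519% (wild type 4) of all normalized counts. Wild type 6 thus lay within the range of knockout 2 to 5, and by the number of members above their mean the library labelled knockout 1 lay closer to wild type 2 to 4 than to the other knockout libraries. By the share of counts it did not, at 0.478% between 0.465% in knockout 2 and 0.496% in the library labelled wild type 2.

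**Figure D2:**
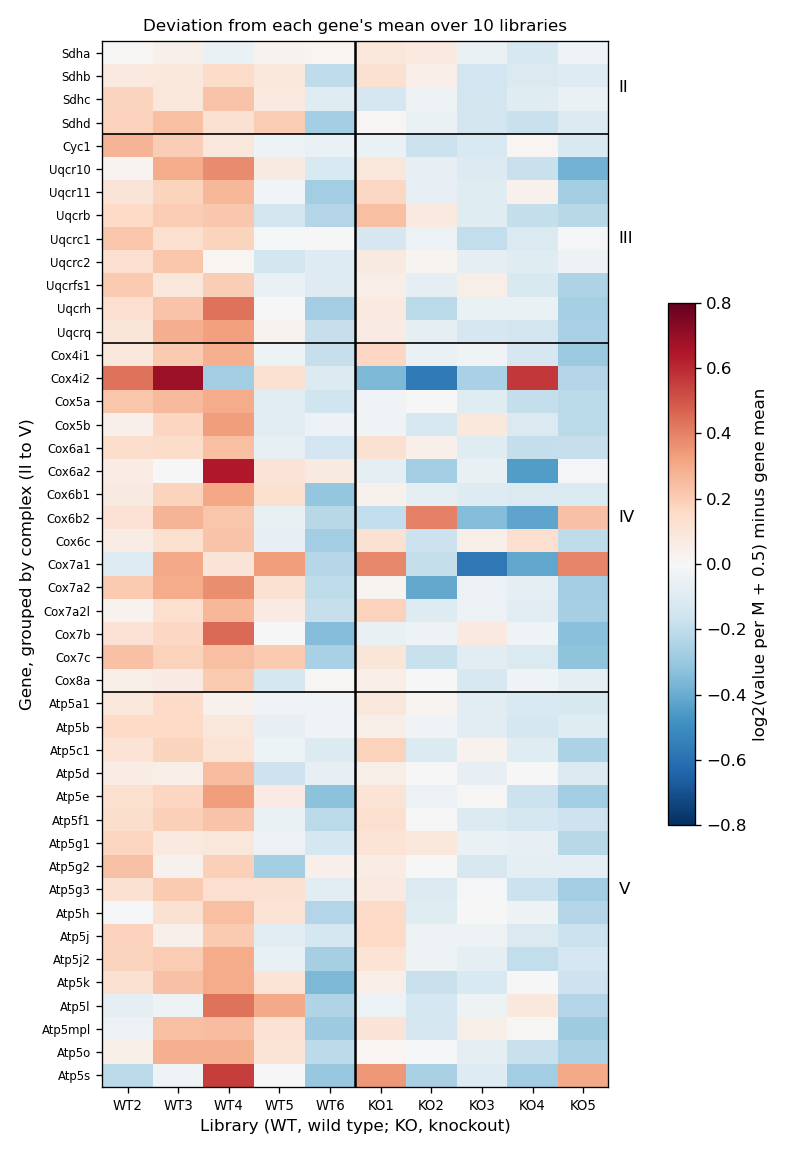
Deviation of each gene (rows, grouped by complex) from its own mean over 10 libraries, as log2(value per M + 0.5), in each library (columns). Wild type 2, 3 and 4 are mostly red (40, 43 and 43 of 45 genes above their mean), wild type 6 is mostly blue (4 of 45), and among the knockout libraries only the one labelled knockout 1 is mostly red (35 of 45).

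In complex II the membrane anchor genes had lower means in knockout (log2 fold change -0.19 for each), the catalytic subunit genes differed less (-0.02 and -0.08), and none passed the test. The summed level of its 4 genes averaged 439.8 ± 17.7 per M over the wild type mice and 417 ± 23.1 over the knockout mice (SD, n = 5 each), a difference of -5.28% (-6.27% in the 8 libraries), and wild type 6 (409) lay inside the knockout range of 391 to 442. Sdhc (ENSMUSG00000058076, mm10 chromosome 1, 171127165 to 171150603, minus strand), an anchor that helps to hold the haem group, measured 82.2, 77.6, 85.1, 76.6 and 67.9 per M across wild type 2 to 6, and 66.2, 70.7, 65.5, 68.1 and 70.1 across knockout 1 to 5. Wild type 6 lay among the knockout libraries, and the other wild type libraries lay above all of them. The log2 fold change of this gene was -0.19 ± 0.07 (SE) with a limma adjusted p of 0.423, and -0.16 in the 8 libraries. Sdhd, the other anchor, measured 63.0, 65.6, 60.4, 63.9 and 46.0 per M across wild type 2 to 6, and 56.0, 53.6, 50.1, 49.0 and 51.4 across knockout 1 to 5. Wild type 6 was the lowest of all 10 libraries, and the 4 other wild type libraries lay above every knockout library. On the log2 scale its fold change was -0.19 ± 0.09 (SE), with a limma adjusted p of 0.530, and -0.19 in the 8 libraries. Sdha, the flavoprotein that oxidises succinate and the highest of the 4 in level per M and per length, measured 247, 253, 236, 250.3 and 249 per M across wild type 2 to 6, and 262, 259, 236, 225 and 239 across knockout 1 to 5. The groups overlapped throughout, with knockout 1 highest and knockout 4 lowest. The fitted log2 fold change was -0.02 ± 0.06 (SE) (95% interval -0.15 to 0.11), and it turned to 0.01 under equal column totals. Sdhb, the iron-sulfur subunit, had a log2 fold change of -0.08 ± 0.08 (SE).

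In complex III all 9 genes were below 0, with a median log2 fold change of -0.18. Their summed level averaged 671 ± 73.2 per M over the wild type mice and 602 ± 36.2 over the knockout mice (SD, n = 5 each), a difference of -10.3% (-11.3% in the 8 libraries). Uqcrc1 (ENSMUSG00000025651, mm10 chromosome 9, 108936633 to 108949623, plus strand), a core protein of the matrix side, measured 107, 100.3, 104, 91.1 and 91.5 per M across wild type 2 to 6, and 83.5, 88.8, 80.0, 84.6 and 90.7 across knockout 1 to 5. The groups did not overlap, but wild type 5 and 6 lay narrowly above knockout 5. Its log2 fold change was -0.21 ± 0.07 (SE) with a limma adjusted p of 0.363, and -0.17 in the 8 libraries. Its partner Uqcrc2 was at -0.05 ± 0.08 (SE), Cyc1, which carries the haem that reduces cytochrome c, at -0.18 ± 0.08 (SE), and Uqcrfs1, the Rieske iron-sulfur protein, at -0.14 ± 0.08 (SE).

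The 5 small subunits of complex III had a median of -0.21, against -0.16 for the 4 core and catalytic genes. Uqcr10, a small subunit of the membrane part, measured 50.01, 60.7, 64.1, 51.8 and 45.2 per M across wild type 2 to 6, and 52.5, 47.1, 45.7, 43.6 and 37.8 across knockout 1 to 5. Wild type 3 and 4 were above every knockout library and knockout 5 was the lowest, while wild type 2, 5 and 6 lay among the knockout libraries. The log2 fold change of this gene was -0.26 ± 0.10 (SE), with a limma adjusted p of 0.469, and -0.34 in the 8 libraries. Uqcr11, the gene of this complex with the highest level per length, measured 99.7, 105, 111, 91.2 and 76.4 per M across wild type 2 to 6, and 104, 88.3, 86.5, 94.9 and 76.2 across knockout 1 to 5, with overlapping groups and a log2 fold change of -0.10 ± 0.10 (SE), which ran from -0.18 without wild type 6 to -0.04 without knockout 5. Uqcrq and the hinge protein gene Uqcrh were at -0.22 ± 0.10 (SE) and -0.21 ± 0.11 (SE), and Uqcrb was at -0.08 ± 0.11 (SE).

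Complex IV held the 2 members with the most negative fold changes past an unadjusted p of 0.05, Cox6a2 and Cox7a2, in the 10 as in the 8 libraries. All 15 genes were below 0, with a median of -0.15, and the summed level averaged 1291 ± 155 per M over the wild type mice and 1164 ± 89.6 over the knockout mice (SD, n = 5 each), a difference of -9.86% (-12.3% in the 8 libraries). Cox7a2 (ENSMUSG00000032330, mm10 chromosome 9, 79755361 to 79759878, minus strand), the widely expressed isoform of subunit 7a, measured 51.2, 54.3, 57.5, 48.1 and 38.4 per M across wild type 2 to 6, and 45.0, 33.2, 42.8, 41.8 and 36.4 across knockout 1 to 5. Wild type 6 lay among the knockout libraries, and wild type 2 to 5 lay above all of them. On the log2 scale its fold change was -0.32 ± 0.11 (SE) with a limma adjusted p of 0.373, -0.35 in the 8 libraries and -0.25 after the trend on exon length was removed. Cox6a2 (ENSMUSG00000030785, mm10 chromosome 7, 128205435 to 128206387, minus strand), known as the heart and muscle isoform of subunit 6a, measured 46.5, 44.6, 69.7, 47.8 and 46.8 per M across wild type 2 to 6, and 42.3, 36.8, 42.7, 32.5 and 44.1 across knockout 1 to 5. The groups did not overlap, but wild type 3 exceeded knockout 5 only slightly, and wild type 4 stood far above the rest. The log2 fold change was -0.35 ± 0.12 (SE), with a limma adjusted p of 0.369, -0.40 in the 8 libraries and -0.23 without wild type 4. Cox6a2 shares 70 bases of exon with Itgad on the other strand.

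**Figure D3:**
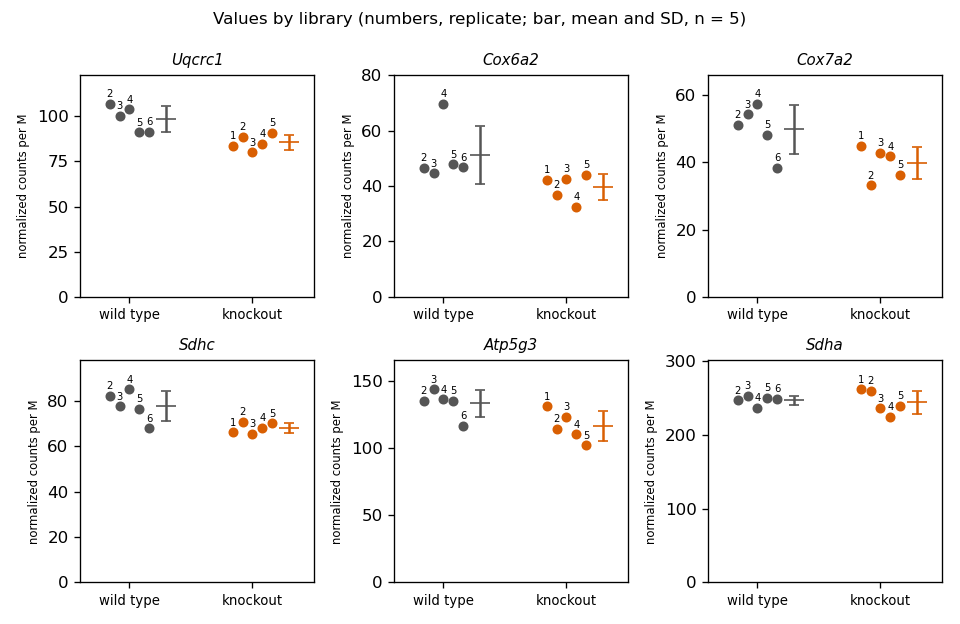
Normalized counts per M of 6 genes in each library (points, labelled by replicate number) with the mean and SD of each group (n = 5). Uqcrc1 and Cox6a2 do not overlap between groups, Cox7a2, Sdhc and Atp5g3 overlap through wild type 6 (and knockout 1 and 3 for Atp5g3), and Sdha overlaps throughout.

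The other complex IV genes, apart from the isoforms known from particular tissues, showed differences of the same sign and smaller size. Cox4i1, the main form of the regulatory subunit 4, measured 312, 339.8, 359, 285 and 258 per M across wild type 2 to 6, and 329.7, 283, 288, 267 and 239 across knockout 1 to 5, with knockout 1 among the higher wild type values, and its log2 fold change was -0.14 ± 0.09 (SE). Cox6a1, the general isoform of subunit 6a, measured 174, 175, 186, 151 and 142 per M across wild type 2 to 6, and 172, 162, 148, 138 and 139 across knockout 1 to 5, with overlapping groups and a log2 fold change of -0.13 ± 0.09 (SE). Cox6b1, which joins the monomers of the dimer, measured 111, 120.02, 131, 116 and 85.7 per M across wild type 2 to 6, and 109, 101, 98.9, 98.2 and 97.9 across knockout 1 to 5. Wild type 6 was the lowest of all libraries for Cox6b1 and the other wild type libraries were above every knockout library, and the log2 fold change was -0.15 ± 0.09 (SE). Cox7b measured 66.7, 68.9, 84.5, 61.4 and 48.1 per M across wild type 2 to 6, and 59.1, 59.8, 64.9, 60.1 and 48.6 across knockout 1 to 5, and its log2 fold change of -0.15 ± 0.12 (SE) became -0.06 without wild type 4. Cox8a, a small membrane subunit, measured 147, 149, 164, 129 and 143 per M across wild type 2 to 6, and 147, 143, 130.4, 139 and 135 across knockout 1 to 5, with a log2 fold change of -0.07 ± 0.07 (SE). Both had overlapping groups. Among the subunits not listed by library, Cox7c was at -0.24 ± 0.10 (SE), Cox5a at -0.21 ± 0.10 (SE), Cox5b at -0.17 ± 0.09 (SE) and Cox6c at -0.03 ± 0.10 (SE). Cox7a2l, the supercomplex factor, measured 159, 170.3, 186.86, 162 and 137 per M across wild type 2 to 6, and 176, 145, 149.8, 146 and 129 across knockout 1 to 5, with overlapping groups and a log2 fold change of -0.13 ± 0.09 (SE).

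The isoform genes of complex IV that are known from particular tissues differed widely in level. Cox4i2, the form of subunit 4 known from lung and from cells at low oxygen, measured 1.92, 2.38, 0.974, 1.45 and 1.16 per M across wild type 2 to 6, and 0.898, 0.707, 0.997, 2.14 and 1.02 across knockout 1 to 5, values that rest on few reads. Knockout 4 lay among the higher wild type libraries and the groups overlapped. Its share of the summed level per length of Cox4i1 and Cox4i2 was 0.518 ± 0.166% in wild type mice against 0.428 ± 0.228% in knockout mice (SD, n = 5 each). Cox7a1, the heart and muscle form of subunit 7a, measured 1.43, 2.05, 1.72, 2.11 and 1.27 per M across wild type 2 to 6, and 2.20, 1.32, 0.896, 1.05 and 2.21 across knockout 1 to 5. Its share of Cox7a1 and Cox7a2 was 5.46 ± 0.951% in wild type mice against 6.10 ± 2.43% in knockout mice, with the highest value in knockout 5 and the lowest in knockout 3. The share of Cox6a2 in the sum of Cox6a1 and Cox6a2 was 20.5 ± 2.55% in wild type mice against 18.1 ± 2.16% in knockout mice, and per length this muscle-type isoform had the highest level of the 4. Cox6b2, known from testis, measured 7.17, 8.05, 7.75, 6.31 and 5.59 per M across wild type 2 to 6, and 5.68, 8.89, 5.07, 4.78 and 7.83 across knockout 1 to 5, and its share of Cox6b1 and Cox6b2 was 7.61 ± 0.591% in wild type mice against 7.80 ± 2.07% in knockout mice. The ranges of the groups overlapped for each of these 4 shares. The 95% intervals of the log2 fold change were -0.91 to 0.23 for Cox4i2 and -0.68 to 0.36 for Cox7a1. Each interval takes in a 1.5-fold lower level in knockout and not a 1.5-fold higher one, on a scale that understates the change of low genes. Within the later run Cox4i2 stood at 0.25.

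In complex V 16 of 17 genes were below 0, with a median log2 fold change of -0.10. The summed level averaged 2526 ± 205 per M over the wild type mice and 2329 ± 155 over the knockout mice (SD, n = 5 each), a difference of -7.81% (-9.35% in the 8 libraries). The 5 genes of the catalytic head and its stalk had a median of -0.10, with -0.09 ± 0.07 (SE) for Atp5a1 (alpha), -0.13 ± 0.07 (SE) for Atp5b (beta), -0.10 ± 0.08 (SE) for Atp5c1 (gamma) and -0.05 ± 0.07 (SE) for Atp5d (delta). Atp5e, the epsilon subunit and the highest of the complex per kb of principal transcript, measured 140.1, 144, 162, 134 and 102 per M across wild type 2 to 6, and 138, 124, 129, 114 and 106 across knockout 1 to 5, with wild type 6 lowest of all libraries. Its log2 fold change was -0.15 ± 0.10 (SE), and ran from -0.25 without wild type 6 to -0.08 without wild type 4.

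Subunit c, which forms the rotating ring in the membrane, is made from 3 genes that encode the same mature protein. Atp5g3 (ENSMUSG00000018770, mm10 chromosome 2, 73908447 to 73911326, minus strand) measured 135, 144, 136, 135 and 117 per M across wild type 2 to 6, and 131, 114, 123, 110.2 and 102 across knockout 1 to 5. Wild type 6 lay among the knockout libraries, and the remaining wild type libraries were above every knockout library. The fitted log2 fold change was -0.20 ± 0.08 (SE), with a limma adjusted p of 0.445, and -0.24 in the 8 libraries. Atp5g1 measured 42.6, 39.8, 40.1, 36.4 and 34.2 per M across wild type 2 to 6, and 40.6, 40.02, 36.3, 36.1 and 32.2 across knockout 1 to 5, with a log2 fold change of -0.06 ± 0.09 (SE). Atp5g2 measured 37.4, 32.5, 36.3, 26.2 and 32.7 per M across wild type 2 to 6, and 33.2, 31.6, 29.0, 30.0 and 30.0 across knockout 1 to 5, with a log2 fold change of -0.09 ± 0.09 (SE). Both overlapped between groups. Of the summed level per length of the 3 genes, Atp5g3 gave 57.3 ± 2.69% in wild type mice against 55.2 ± 1.71% in knockout mice (SD, n = 5 each), Atp5g2 22.9 ± 2.52% in wild type mice against 23.7 ± 1.38% in knockout mice, and Atp5g1 19.8 ± 0.498% in wild type mice against 21.1 ± 0.873% in knockout mice. Atp5g3 was the highest of the 3 in every library. The order of the others depends on the length used. Per kb of principal transcript Atp5g2 exceeded Atp5g1 in every library but wild type 5, and per kb of all exons in every library. Per M, with no length, Atp5g1 exceeded Atp5g2 in every library. The Atp5g1 share was 20.7% in the library labelled wild type 2, inside the knockout range of 20.3 to 22.4%, and 19.4 to 19.8% in the 4 other wild type libraries.

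The peripheral stalk, which keeps the head from turning with the ring, had a median of -0.10 over 4 genes. Atp5o, the OSCP subunit at its top, measured 95.6, 113, 113, 100.04 and 79.9 per M across wild type 2 to 6, and 93.4, 91.5, 87.8, 81.6 and 77.4 across knockout 1 to 5. Wild type 6 was below 4 of the knockout libraries, and the other wild type libraries were above all of them. Its log2 fold change was -0.21 ± 0.09 (SE), with a limma adjusted p of 0.505, and -0.25 in the 8 libraries, but 47.9% of its annotated exon bases are shared with other gene models. The other stalk genes were at -0.12 ± 0.09 (SE) for Atp5f1, -0.09 ± 0.09 (SE) for Atp5h and -0.08 ± 0.08 (SE) for Atp5j. The 4 small membrane subunits Atp5j2, Atp5k, Atp5l and Atp5mpl had a median of -0.15 and ran from -0.16 for Atp5k to -0.10 for Atp5mpl. Atp5s was measured at 4.06 ± 1.16 per M over wild type mice and 4.05 ± 0.967 over knockout mice (SD).

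Levels were compared between genes per kb of the principal transcript, and the order depends on that choice of length. Cox4i1 was the highest at 417 ± 54.4 per M per kb in wild type, followed by Atp5e at 324 ± 51.8, Atp5b at 293 ± 21.1, Cox6a1 at 290.1 ± 32.4, Cox8a at 266 ± 23.2 and Atp5h at 255 ± 31.0 (SD, n = 5). From Atp5e downward these neighbours did not differ by more than their SDs. Per kb of all annotated exons, a length chosen after seeing the data, Cox8a was first at 237, Cox6a1 followed at 236 and Cox4i1 at 200.6, while Atp5e fell to rank 12 at 77.7, below Atp5a1 (192), Atp5b (132), Atp5d (86.4) and Atp5h (84.8). Sdha, at 85.1 ± 2.172, stood above the other complex II genes, with 24.6 ± 2.07 for Sdhc as the lowest, and both places held per kb of all exons. In complex III the order ran from Uqcr11 at 217 ± 30.3 to Uqcrfs1 at 38.0 ± 3.71, but per kb of all exons the lowest was Uqcrc1 at 23.9. At the lower end were Cox7a1 at 4.37 ± 0.943, Atp5s at 2.73 ± 0.778 and Cox4i2 at 2.166 ± 0.786, the 3 lowest of the 45 genes by either length. Across the 10 libraries the coefficient of variation of the level per M ran from 4.67% for Sdha to 42.6% for Cox4i2.

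**Figure D4:**
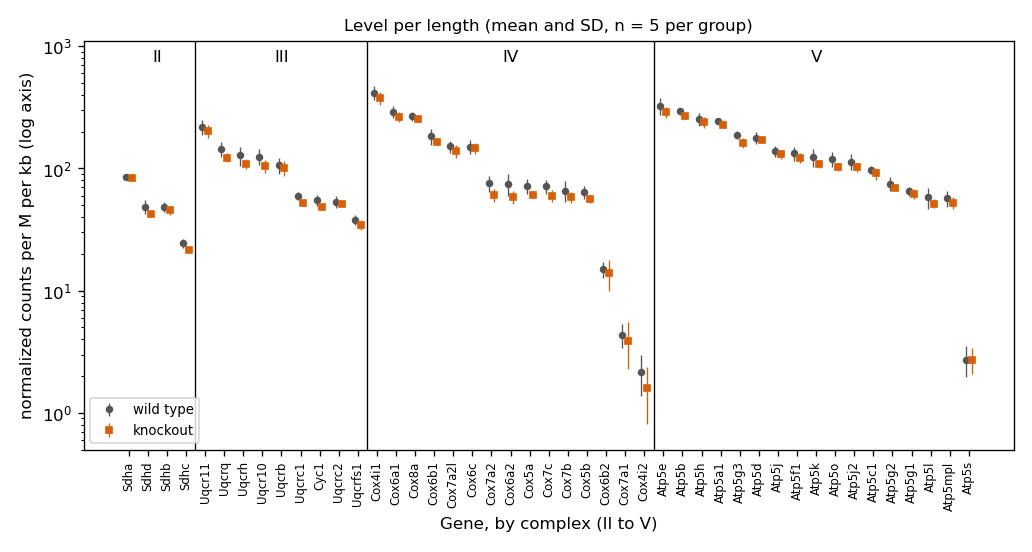
Level per length (normalized counts per M per kb of principal transcript, log axis) of each gene, ordered within each complex by the wild type mean, with mean and SD of 5 wild type and 5 knockout libraries. With this length Cox4i1 is the highest at 417 and Cox6b2, Cox7a1, Cox4i2 and Atp5s lie far below the others, whereas per kb of all exons Cox8a is first and Atp5l (4.90) and Atp5g1 (7.86) stand near Cox6b2 (6.30). The groups overlap within their SDs for most genes.

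The fold changes followed exon length over all genes, and the members are short genes. Their median exon length was 1675 bases against 4289 over all genes tested, and 33 of 45 fall among the shortest 20% of all genes. Over all genes the median log2 fold change went step by step from -0.08 in the shortest 10% to 0.11 in the longest 10%. Within a library, the slope of the deviation from each gene's mean on log2 exon length was -0.037, -0.030, -0.069, 0.004 and 0.026 in wild type 2 to 6, and -0.003, 0.002, 0.033, 0.026 and 0.047 in knockout 1 to 5. Wild type 4, with the members highest, had the most negative slope, and knockout 5, with the members lowest, the most positive. After each library's trend on length was removed, 43 members were below 0 (51.1% of all genes), the median was -0.09, and 6 had an unadjusted p under 0.05 on the lower side (3.46% of all genes). These 6 were Uqcrc1 at -0.20, Cox7a2 at -0.25, Cox6a2 at -0.29, Sdhc at -0.16, Uqcr10 at -0.20 and Atp5g3 at -0.15, and again 0 members and 0% of all genes passed with limma.

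**Figure D5:**
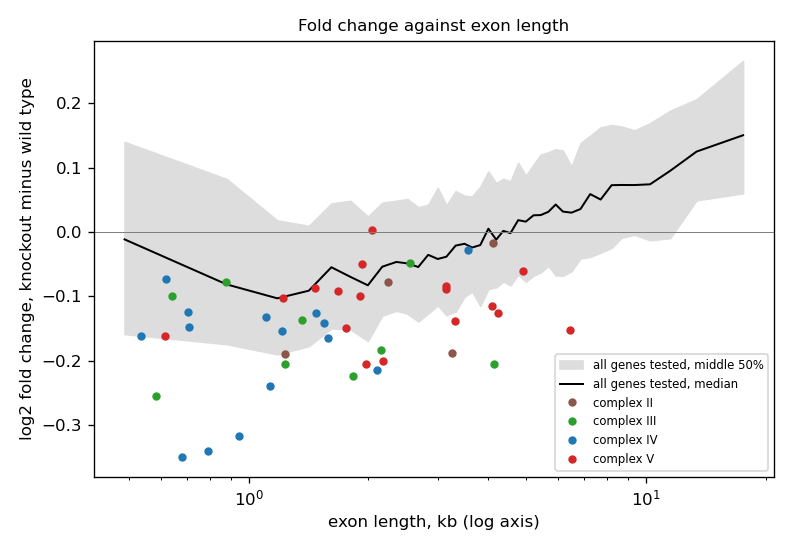
Log2 fold change (knockout minus wild type) against exon length in kb (log axis), with the 45 genes as points coloured by complex, and the median and middle 50% of all genes tested in bins of length as line and band. The line first falls, from -0.01 at 487 bases to -0.10 at 1180.5 bases, and then runs mostly upward with length. Most points lie under it, and most points are at the short end.

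Other genes of respiration were read in the same fit from lists chosen by function. Of all genes tested, 48.7% were below 0 in the 10 libraries, 49.9% in the 8 libraries and 51.1% with the length trend removed. In the same order, 3.28%, 5.25% and 3.46% of all genes had an unadjusted p under 0.05 on the lower side. Of the 45 complex I genes (every Nduf symbol, assembly factors included), 42 were below 0 with a median of -0.13, 0 were called and 9 had an unadjusted p under 0.05 on the lower side. In the 8 libraries 41 were below 0 with a median of -0.17, and with the length trend removed 40 with a median of -0.09. The examples taken by smallest p were Ndufv1, which binds NADH, at 98.5 ± 6.73 per M (SD) in the wild type group against 86.4 ± 7.47 in the knockout group, and Ndufa12 at -0.24 ± 0.10 (SE) on the log2 scale. The mitochondrially encoded partners of complexes III to V (6 of 6 below 0, median -0.13) included mt-Co1 at -0.18 ± 0.15 (SE) and mt-Atp6 at -0.32 ± 0.16 (SE), and none of them had an unadjusted p under 0.05. Of the 6, mt-Co2, mt-Co3 and mt-Atp6 were listed at only 3.45, 4.38 and 19.7 per M in wild type, against 14169 for mt-Co1. The counts and medians include these low genes. In the 8 libraries the median of these 6 was -0.29, and mt-Atp6 at -0.57 ± 0.12 (SE, limma adjusted p = 0.0504) and mt-Co1 at -0.38 ± 0.11 (SE, limma adjusted p = 0.163) had an unadjusted p under 0.05. With the length trend removed 4 of 6 were below 0, with a median of -0.09. Of 38 tested assembly factors, 28 were below 0 with a median of -0.10, against 29 and -0.11 in the 8 libraries and 23 and -0.07 with the length trend removed. The lowest p among them belonged to Cox17, a copper chaperone of complex IV, which stood at 11.3 ± 1.53 per M (SD) in the wild type group against 7.81 ± 2.68 in the knockout group, with a log2 fold change of -0.56 ± 0.19 (SE) and a limma adjusted p of 0.381. Cox14, which binds newly made COX1, was at -0.23 ± 0.09 (SE).

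Electron carriers, the citric acid cycle and regulators of mitochondrial biogenesis were read in the same way, and no test compared the lists. Beside their counts stand 48.7% of all genes below 0 in the 10 libraries, 49.9% in the 8 libraries and 51.1% with the length trend removed. Of 13 genes for cytochrome c and coenzyme Q synthesis, 8 were below 0 with a median of -0.05, against 9 and -0.07 in the 8 libraries and 8 and -0.02 with the length trend removed. Cycs, which encodes cytochrome c, stood at 19.2 ± 3.25 per M (SD) in the wild type group against 15.9 ± 1.45 in the knockout group, with a log2 fold change of -0.25 ± 0.12 (SE), and Coq6 was at -0.24 ± 0.11 (SE). Of 14 citric acid cycle enzymes, 11 were below 0 with a median of -0.05, against 11 and -0.05 in the 8 libraries and 13 and -0.07 with the length trend removed. The smallest p among them were those of Mdh2 at -0.11 ± 0.07 (SE) and Sucla2 at -0.11 ± 0.07 (SE). Of 12 biogenesis regulators, 9 were above 0 with a median of 0.10, against 7 and 0.09 in the 8 libraries and 8 and 0.10 with the length trend removed. Polg, the mitochondrial DNA polymerase, stood at 97.9 ± 10.5 per M (SD) in the wild type group against 114 ± 8.47 in the knockout group, with a log2 fold change of 0.23 ± 0.08 (SE), and Gabpa, the factor whose letters were searched in the promoters, at 41.3 ± 2.09 per M (SD) in the wild type group against 46.7 ± 1.62 in the knockout group, with 0.18 ± 0.07 (SE). No gene of these lists passed with limma. On the higher side 2 of the 12 regulators had an unadjusted p under 0.05, as did 803 of the 12946 genes tested.

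Markers of other cell types were read beside these values, in the 10 libraries, where 48.7% of all genes tested were below 0. The 5 tested fibroblast, pericyte and smooth muscle markers were all below 0, with a median of -0.62, and the list of 9 summed to 7.06 to 14.1 per M in wild type and 2.82 to 8.97 in knockout libraries, with Pdgfra, Pdgfrb and Cspg4 below 1 per M in every library. Macrophage and monocyte markers summed to 20.6 to 49.3 per M in wild type and 21.9 to 53.4 in knockout, with 0 of 5 tested below 0. Club cell markers summed to 4582 to 9092 and 4843 to 8914 per M, with 1 of 5 below 0. Of the 10 AT2 markers, whose sums are given with the samples, 8 were below 0, with a median of -0.07. Ciliated cell markers summed to 382 to 498 and 339 to 430.4 per M, with 5 of 6 below 0, and AT1 markers to 2228 to 2855 and 2206 to 2629 per M, with 6 of 8 below 0. Endothelial markers (10.4 to 15.6 and 9.83 to 14.0 per M) and lymphocyte markers (17.6 to 26.0 and 16.5 to 18.1) were low, with 5 of 6 and 4 of 7 listed genes in the table. Red blood cell markers summed to 0 to 4.32 per M in wild type and 0 to 2.28 in knockout libraries. Of 5 neutrophil markers only Cxcr2 was in the table, at no more than 0.211 per M in any library. Listed genes that are not in the table have no value here. No gene of these lists passed with limma, and their part in the result was not tested.

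Some members share sequence with other genes, and whether strand was used in counting is not given in the sources used here. Exon bases of 13 members overlap another gene, and reads there cannot be told apart without strand. The largest shares were 47.9% for Atp5o, 19.7% for Uqcrc2 (with Pdzd9), 12.8% for Cox5a and 12.7% for Atp5j, which overlaps Gabpa on the other strand. For 15 members a transcript of another gene was at least 95% identical over at least 200 bases, with 9 such genes for Atp5l. This search did not leave out genes that overlap a member, so the 15 can include overlaps as well as copies. Only 3 of these members have such a gene in the table, Uqcrc2 (Pdzd9), Cox7a2l (Gm6969) and Atp5g1 (Gm10039). Pdzd9 is the gene that overlaps Uqcrc2, by 504 exon bases on the other strand, and is not counted here as a separate copy. How reads were split between copies is unknown.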

How the data were processed

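The authors deposited 1 table of 16154 Ensembl gene IDs by 10 libraries, with columns that carry the sample titles. As deposited, the numbers are a non-negative signal with decimals, which the authors name normalized counts. Per the labels' protocols, polyA libraries came from a NEBNext Ultra kit and were read on a NextSeq instrument. The tools and build named are bcl2fastq 2.17, edgeR 3.14.0 and mm10, per the submitters' processing notes. Which aligner, annotation, strand setting and normalization were used is not given in the sources used here, and no step beyond those is assumed.

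The whole table was divided by 7.14 M, the mean column total, and 12946 genes that reached 1 per M in 5 or more libraries were kept. The test was limma-trend (limma 3.58.1, R 4.3.3) on log2(value per M + 0.5), two-sided, with Benjamini-Hochberg adjustment over all genes tested. The scale understates the change of low genes, and no count test was run. Unadjusted p-values come from the same fit. Exon lengths and principal transcripts are from GENCODE M21, promoters from RefSeq. Levels per kb used the shortest principal transcript, and all annotated exons as an alternative. Tables were made with Python 3.11.15, pandas 2.3.3 and numpy 2.4.6, figures with matplotlib 3.10.9, and the test was checked on simulated data.

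The members and lists were chosen with earlier results of these data known. Genes with values in every library are, per complex, those with the 2 smallest p and the highest level, and the isoform families Cox4i, Cox6a, Cox6b, Cox7a, Cox7b, Cox8 and Atp5g, and of other lists the 2 genes with the smallest p. Alternatives were other pseudocounts (0.1 and 2), other filters on low values (none, or 5 per M), TMM, equal totals and median-ratio scaling, a replicate block, run or sex as a covariate, sample weights, each run alone, leaving out libraries, and removal of each library's lowess trend on exon length. Libraries are separate mice by their titles, so p-values measure the spread between these mice.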

Additional observations from a re-analysis of the deposited data

Results flagged for a closer look

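In 7 of 68 groups of 5 values examined, the highest or lowest library lay apart from the 4 others by more than Dixon's critical value of 0.71 of the range, which chance does in about 1 of 20 groups. That rate is no test of the 7, because the groups are not independent. Members vary together by library, the complex II sum contains Sdhd, and the shares are made from the same members. Wild type 6 was the lowest of its group for Sdhd at 46.0 per M, where the 4 other wild type libraries lay between 60.4 and 65.6. The summed level of complex II in the same library was 409 per M, against 441 to 452 in the others. Wild type 4 was the highest for Cox6a2 at 69.7 per M, against 44.6 to 47.8. Knockout 4 was the highest for Cox4i2 at 2.14 per M, against 0.707 to 1.02, a level that rests on few reads. The library labelled knockout 1 was the highest for Cox6b1 at 109 per M, against 97.9 to 101.0 in the other knockout libraries. The library labelled wild type 2 was the lowest for Rbck1 at 29.7 per M, against 56.1 to 57.8, and the highest for the Atp5g1 share of the subunit c genes at 20.7%, against 19.4 to 19.8%. The causes were not tested.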

How the results depend on the processing

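Values near 1 per M rest on few reads. Fold changes over all genes followed exon length, and the members are short genes. With the length trend removed, 43 members were below 0 with a median of -0.09, and the part of length in their fold changes was not tested. No member passed with limma over all 10 libraries, and the cause was not tested: 8 libraries or the later run alone gave more calls over all genes, and again none among members. Over all 27 alternatives the number of members below 0 was 41 to 45 and the median log2 fold change -0.23 to -0.09. Leaving out 1 library gave medians of -0.20 (without wild type 6) to -0.09 (without wild type 4), and 0 to 4 called genes over the whole table (4 without the library labelled knockout 1).

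The replicate number as a block called 261 genes (2.02% of those tested), 5 of them members: Cox7c, Atp5g3, Cox7a2, Uqcrq and Uqcrh, with log2 fold changes of -0.45 to -0.29, and the median of members was -0.23. Same-numbered libraries correlated at 0.31, 0.03, 0.10 and 0.08 in their deviations, so the numbers were not taken to pair the mice, and not every library correlated best with its own number. The block gives no weight to wild type 6 and knockout 1, whose numbers have no partner. Without these libraries and with no block, chosen after seeing the data, 22 genes and 0 members were called, with the same median. In each of the 26 other alternatives 0 members were called.

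Called genes over the whole table were 1 with the run as a covariate, 41 in the later run alone, 52 in the 8 libraries that leave out those labelled wild type 2 and knockout 1, and 54 when their length trend was removed as well. Of 619 values of the 23 genes given by library, 608 kept their direction and their side of the threshold. Cox7a2 (-0.45) and Atp5g3 (-0.29) passed under the block, and Rbck1 passed in 3 settings. The libraries labelled wild type 2 and knockout 1 were left out because of their Rbck1 values. A pass of Rbck1 in a setting without both is therefore no evidence on the labels. The Sdha log2 fold change turned to 0.0079 under equal totals and to 0.014 in the earlier run, and leaving out 1 library gave -0.043 (without knockout 1) to 0.012 (without knockout 4). Cox4i2 turned to 0.25 in the later run. In the same 8 libraries with the length trend removed, Cox6b2 was 0.0031 and Atp5g2 0.0063. The order of members by level per length depends on the length used, as given with the levels. With the length of all exons in place of the principal transcript, also chosen after seeing the data, shares in wild type and knockout were 0.989% and 0.817% for Cox4i2, 24.1% and 21.3% for Cox6a2, 3.81% and 3.92% for Cox6b2, 8.85% and 9.52% for Atp5g1, and 68.9% and 67.2% for Atp5g3.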

Other observations

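The mitochondrially encoded partners of the members were listed at very unequal levels. In wild type libraries mt-Co1 stood at 14169 ± 2149 per M and mt-Cytb at 8123 ± 1815, while mt-Co2 stood at 3.45 ± 0.597, mt-Co3 at 4.38 ± 1.27 and mt-Atp6 at 19.7 ± 3.98 (SD, n = 5 each). In knockout libraries mt-Co1 stood at 12560 ± 2356 per M and mt-Co2 at 3.53 ± 1.27. The low values of mt-Co2, mt-Co3 and mt-Atp6 were present in every library of either group, so they were not used to describe the stoichiometry of complex IV or V RNA. The cause was not tested.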
